A study of Mus musculus with 5 samples.

Results

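The genes described here encode the ligands and receptors of the classical axon guidance systems: semaphorins with plexins, ephrins with Eph receptors, Slits with Robos, and netrins and Draxin with Dcc and the Unc5 receptors. They were taken by family from the gene symbols, and the families were picked with earlier results of these data known. Of 67 symbols of these families in the table, 64 had a mean of at least 10 normalized counts over the 5 libraries, as had 16411 of all 54532 genes. Sema3g, Robo4 and Ntn5 lay under that minimum, with means of 6.18, 9.08 and 5.90. The 64 genes were 19 semaphorins, 9 plexins, 8 ephrins, 14 Eph receptors, 3 Slits, 3 Robos, 3 netrin-type ligands and 5 netrin receptors.

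The RNA came from hippocampal neurospheres of C57BL/6 mice, floating cultures of neural stem cells, progenitors and their progeny, started at P0. The medium held B27 with FGF-2 and EGF, each at 20 ng/ml, and spheres were collected on day 7. Controls were hGFAPCre+, Arid1b+/+ (2 libraries), and the heterozygous group was hGFAPCre+, Arid1b flox/+ (3 libraries). All 5 libraries thus carried a Cre transgene under a human GFAP promoter, which is active in neural progenitors. Arid1b codes for a component of BAF, a complex that remodels chromatin. The labels do not state that each library is a separate mouse, so the spread behind the p-values is that between libraries and may be technical in part. Heterozygous replicate 2 differed in sex from the other libraries, as given below, so it was not from the same mouse as any of them.

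Guidance ligands attract or repel the growing tip of an axon, and most of these systems also steer migrating neurons and glial precursors. Slits are secreted repellents that bind Robo receptors. Netrin-1 attracts axons through Dcc and repels them through Unc5 receptors, and Draxin is a secreted repellent that binds Dcc and netrin-1. Ephrins are membrane-bound ligands of the Eph receptor tyrosine kinases, the A class held by a lipid anchor and the B class spanning the membrane. Semaphorins are secreted or membrane-bound and signal through plexins, the secreted class 3 members mostly with a neuropilin as co-receptor.

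Depth was 19833803 to 25494722 reads per library. Arid1b had normalized counts of 1510.4 and 1730.0 in controls against 1102, 1145 and 1003 in heterozygous libraries (log2 fold change -0.58 with SE 0.14, adjusted p = 0.0701 in limma). Counts per gene cannot tell whether the floxed part was removed. The progenitor markers Nes and Sox2 were present in all libraries, at 6454 to 25196 and 5611 to 9615. Heterozygous replicate 2 differed from the others in sex, with 36851 Xist reads and 0 reads of 4 Y-linked genes. Heterozygous replicate 3 had 301 Xist reads beside reads of all 4 Y-linked genes. Control replicates 1 and 2 and heterozygous replicate 1 had 6, 16 and 1 Xist reads. The source of the Xist reads in heterozygous replicate 3 was not tested. Of the 64 genes, 3 (Efnb1, Plxna3 and Plxnb3) are X-linked. Control replicate 1 stood apart, with correlations across genes to the other libraries of 0.927 to 0.952, where all other pairs had 0.971 to 0.989. Marker calls are those of limma at an adjusted p under 0.05, where 1.9% of all genes tested were called higher and 0.944% lower. Of 20 neuron markers 8 were called higher and 0 lower, and their summed normalized counts were 32746 to 41259 in controls and 57713 to 80605 in heterozygous libraries. Of 10 astrocyte markers 3 were called lower, with sums of 116276 to 133460 in controls and 69686 to 85167 in heterozygous libraries. Of 15 oligodendrocyte lineage markers 2 were called lower, with overlapping sums of 66626 to 93730 in controls and 60922 to 77086 in heterozygous libraries. The median log2 fold change was 1.17 over the neuron list, -0.72 over the astrocyte list and -1.40 over the oligodendrocyte lineage list. Of 15 neural stem cell markers 2 were called lower, with a median log2 fold change of -0.47 over the list, while their sum was 171356 to 184760 in controls and 204121 to 234780 in heterozygous libraries. No tested marker of microglia, endothelium, pericytes and fibroblasts or choroid plexus was called in limma, and no marker of any list was at 0 in every library. The part of cell composition in the results was not tested, and fewer cells of a type and less RNA per cell cannot be told apart in bulk RNA.

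Heterozygous neurospheres had more Slit2, Epha3 and Efnb2 RNA and less Slit1, Plxnb3 and Draxin RNA than controls. In limma over all genes tested, with an adjusted p under 0.05 as the threshold, 3 of the 64 genes rose, 3 fell and 58 did not pass. That is 9.38% of the guidance genes, where 2.84% of all genes tested passed (1.9% higher and 0.944% lower). The median log2 fold change was 0.35 over the 64 genes, 0.15 over the 33 ligands and 0.51 over the 31 receptors, and 0.0079 over all genes tested. The groups did not overlap for 47 of the 64 genes, 31 higher and 16 lower. That is 73.4%, where the share of all genes tested was 46.7% (23.4% higher and 23.3% lower).

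The calls depended on the libraries used. Without any 1 heterozygous library none of the 64 genes passed (adjusted p of the 6 genes 0.184 to 0.220, limma), and 0.00609%, 0.00609% and 0% of all genes did, without replicate 1, 2 and 3. Without control replicate 1, 21 of the 64 were called higher and 8 lower, where 9.21% and 7.62% of all genes were, and leaving out control replicate 2 gave 27 and 17, where 27.2% and 23.5% were. DESeq2 on the recovered reads called 16 and 7 (7.14% and 6.95% of all genes), and library weights 1 and 1 (0.481% and 0.232%). edgeR called the same 6 genes (2.49% of all genes), as did a pseudocount of 0.5 (2.78%) or 5 (3.11%), a minimum mean of 50 (3.18%) and quantile normalization (2.6%). Without a minimum Epha7 joined them as a 4th higher gene (1.37% higher and 0.723% lower).

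**Figure D1:**
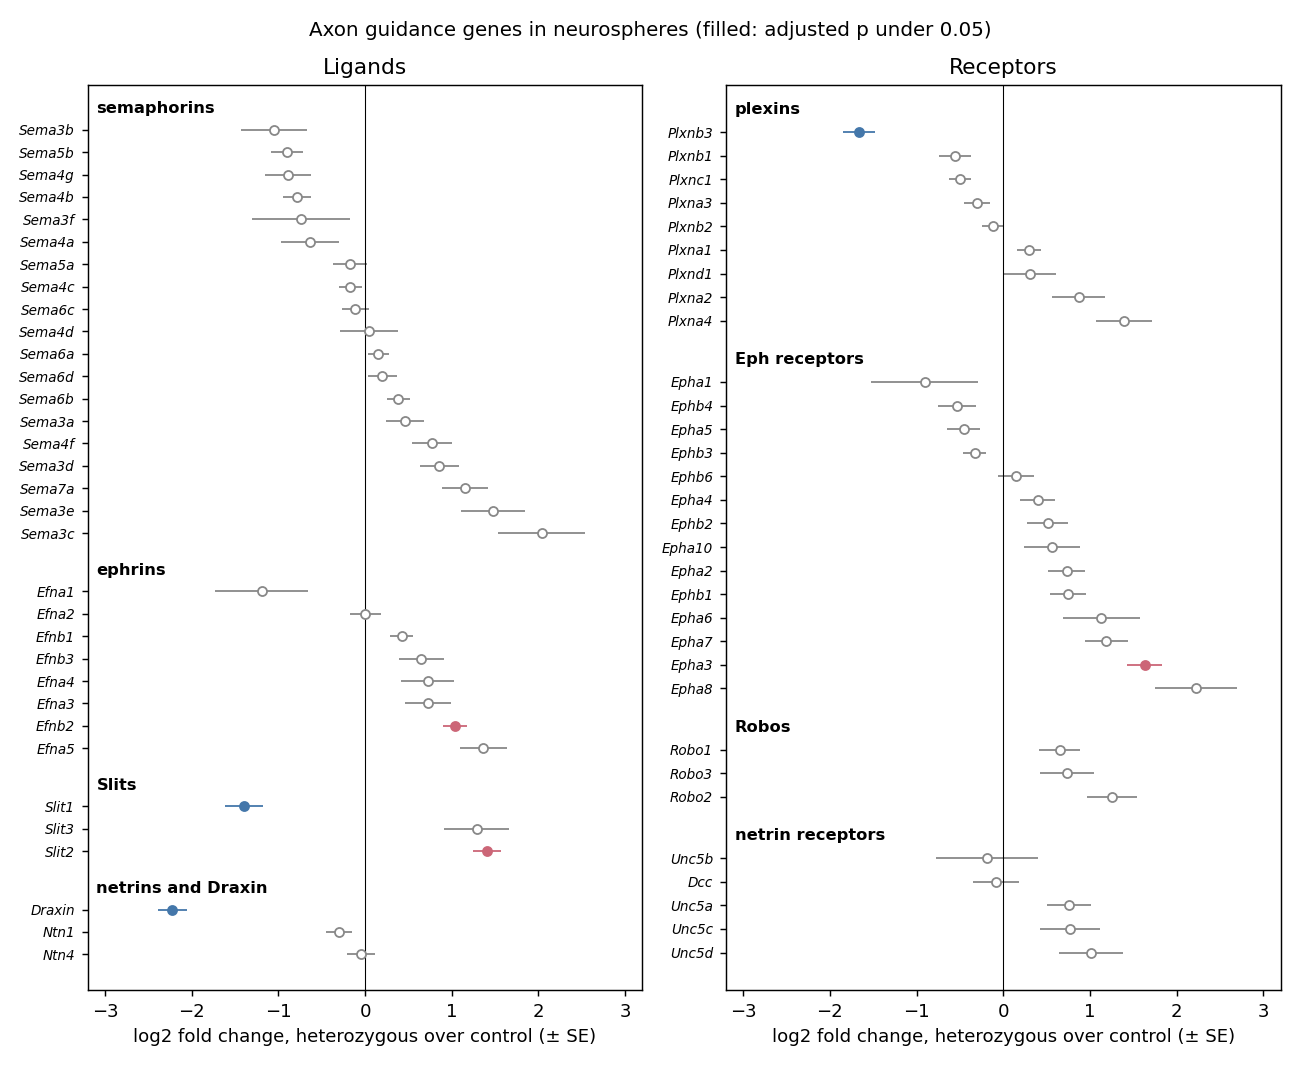
X axis, log2 fold change of heterozygous over control libraries (3 against 2) with its standard error for each of the 64 genes, ligands on the left and receptors on the right. Filled points passed the threshold: Slit2 (1.41), Epha3 (1.63) and Efnb2 (1.04) were higher, and Slit1 (-1.40), Plxnb3 (-1.67) and Draxin (-2.22) lower.

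**Figure D2:**
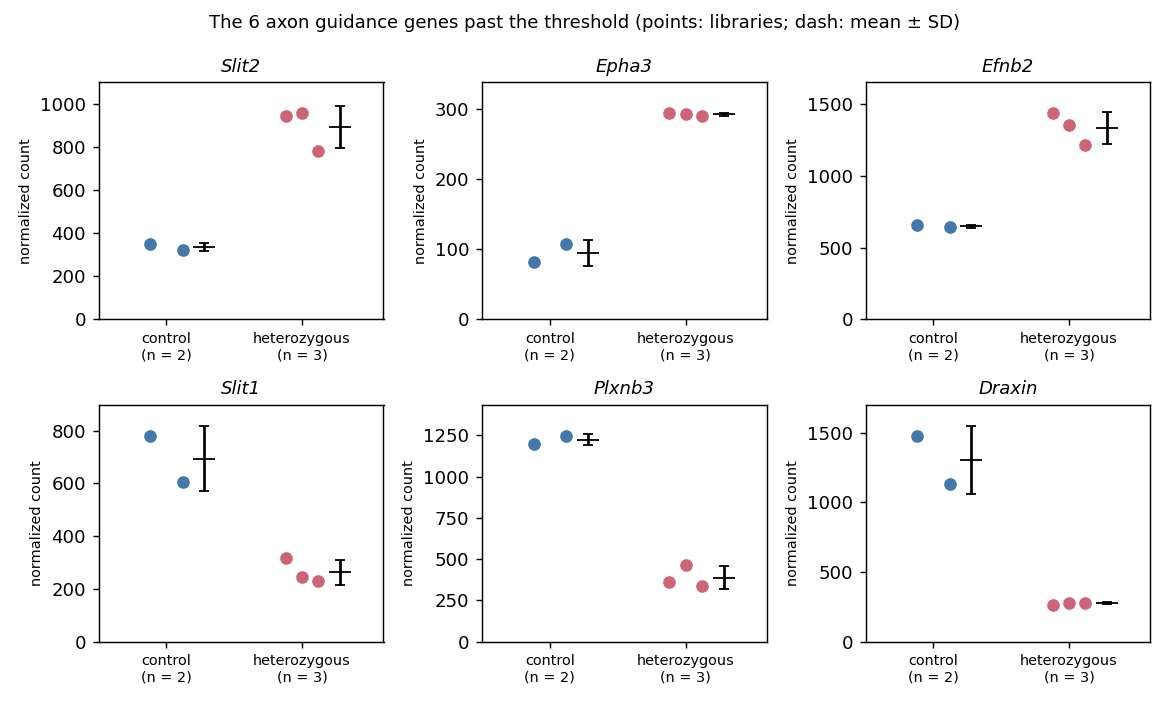
Y axis, normalized count in each library for the 6 genes past the threshold, control and heterozygous libraries side by side, with the mean ± SD of each group. In each panel all 3 heterozygous libraries lie on one side of both controls, at 266 to 282 against 1134 and 1479 for Draxin.

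Promoters are shown for a pair of genes that rose and a pair that fell, so that genes of one direction can be read beside those of the other. RefSeq windows on GRCm38.p6, from 250 bases before to 50 bases after a gene's start, matched 54 of the 64 genes and 5 of the 6 called ones. The genes with no entry were Sema3b, Sema3f, Sema6a, Plxna1, Plxna4, Efnb3, Slit1, Ntn1, Dcc and Unc5d. The windows are those of Slit2 (chr5:47982905-47983204, + strand), Efnb2 (chr8:8661193-8661492, - strand), Draxin (chr4:148130649-148130948, - strand) and Plxnb3 (chrX:73756853-73757152, + strand). Capitals mark CAGCTG, an E-box that reads the same on both strands and is of a type bound by proneural bHLH factors.
Slit2: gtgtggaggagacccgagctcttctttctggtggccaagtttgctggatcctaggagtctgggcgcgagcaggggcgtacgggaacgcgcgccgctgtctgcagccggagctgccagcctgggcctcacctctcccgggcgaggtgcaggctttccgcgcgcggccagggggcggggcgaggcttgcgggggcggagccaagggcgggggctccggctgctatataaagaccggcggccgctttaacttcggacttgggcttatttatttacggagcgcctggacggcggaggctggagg
Efnb2: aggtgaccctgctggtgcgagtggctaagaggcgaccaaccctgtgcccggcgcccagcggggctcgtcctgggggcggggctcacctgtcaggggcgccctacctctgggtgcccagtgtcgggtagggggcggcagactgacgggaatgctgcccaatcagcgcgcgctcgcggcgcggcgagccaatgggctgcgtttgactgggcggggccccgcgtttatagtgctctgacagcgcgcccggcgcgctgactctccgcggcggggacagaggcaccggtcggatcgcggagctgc
Draxin: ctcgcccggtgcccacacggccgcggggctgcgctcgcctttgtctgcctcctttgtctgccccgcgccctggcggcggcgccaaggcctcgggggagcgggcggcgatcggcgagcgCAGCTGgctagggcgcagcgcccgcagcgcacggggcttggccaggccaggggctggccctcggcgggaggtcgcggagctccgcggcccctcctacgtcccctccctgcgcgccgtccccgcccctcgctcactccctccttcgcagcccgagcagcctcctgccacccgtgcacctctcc
Plxnb3: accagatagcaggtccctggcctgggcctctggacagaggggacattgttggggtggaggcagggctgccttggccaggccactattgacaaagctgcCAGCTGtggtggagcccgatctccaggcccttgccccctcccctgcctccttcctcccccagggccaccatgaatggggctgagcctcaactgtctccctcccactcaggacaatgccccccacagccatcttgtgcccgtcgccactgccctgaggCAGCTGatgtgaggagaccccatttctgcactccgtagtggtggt
The windows of Draxin and Plxnb3 held 1 and 2 matches to CAGCTG, and those of Slit2, Efnb2 and Epha3 held none. In the 70 windows of guidance genes and in all 32851 windows, CAGCTG was present in 14.3% and 16.3%. On both strands, each motif searched by itself, the shares in the same order were 7.14% and 17.2% for CAGATG, 18.6% and 19.6% for ACGTG, 4.29% and 7.81% for TGANTCA and 4.29% and 8.30% for TTCNNNGAA. The windows of guidance genes held a median of 20.5 CpG dinucleotides and all windows 7. All windows are those of 27025 genes, not only of the 16411 tested, while the guidance genes had passed the minimum. The part of that minimum in these differences was not tested. The Draxin, Efnb2 and Slit2 windows held 39, 35 and 30, and that of Plxnb3 held 4. A match describes letters in the window and does not show that a factor binds there.

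The Slit ligands moved in opposite directions. Slit1 (ENSMUSG00000025020; chromosome 19, 41600257 to 41743665, - strand) was counted at 781 and 606 in controls against 317, 244 and 229 in heterozygous libraries, in normalized counts. Slit2 (ENSMUSG00000031558; chromosome 5, 47983138 to 48307733, + strand) had 348 and 323 in controls against 943, 956 and 782 in heterozygous libraries. The groups did not overlap for either gene, and the 2 controls were closer to each other than to any heterozygous library. The means of Slit1 were 693 ± 124 (SD, n = 2) for controls and 263 ± 47.3 (SD, n = 3), and those of Slit2 336 ± 17.5 (SD, n = 2) for controls and 894 ± 96.9 (SD, n = 3). Slit1 fell (log2 fold change -1.40 with SE 0.21, adjusted p = 0.0396 in limma), with log2 fold changes of -1.58 to -1.21 when 1 library was left out in turn. Slit2 rose (log2 fold change 1.41 with SE 0.16, adjusted p = 0.0258 in limma), with 1.35 to 1.50 in those fits. Slit3, the least abundant Slit per length, had 44.2 and 32.5 in controls against 129.9, 101 and 63.3 in heterozygous libraries and did not pass (1.29, SE 0.37, adjusted p = 0.103), although the groups did not overlap.

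The make-up of the Slit RNA differed between the groups. Per kilobase of merged exons, Slit1 made up 86.3% and 85.0% against 47.8%, 43.2% and 48.4% of the summed Slit level, controls before heterozygous libraries. Slit2 made up 8.95% and 10.6% against 33.1%, 39.4% and 38.5% on the same scale. Every heterozygous library had a lower Slit1 share and a higher Slit2 share than both controls. The merged exons of Slit2 span 25433 bases and its longest coding transcript 9960, so shares were also taken per kilobase of that transcript, a measure added after the data were seen. They were then 76.0% and 73.4% against 31.9%, 27.2% and 30.8% for Slit1 and 19.3% and 22.3% against 54.0%, 60.7% and 60.0% for Slit2. Which of the 2 was more abundant in heterozygous libraries depended on the length used, and the direction of each share did not. The summed Slit level was 153 and 120.4 against 112, 95.4 and 79.9 per kilobase of merged exons, without overlap, and 181 and 145 against 175, 158 and 131 per kilobase of the longest coding transcript, with overlap.

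**Figure D3:**
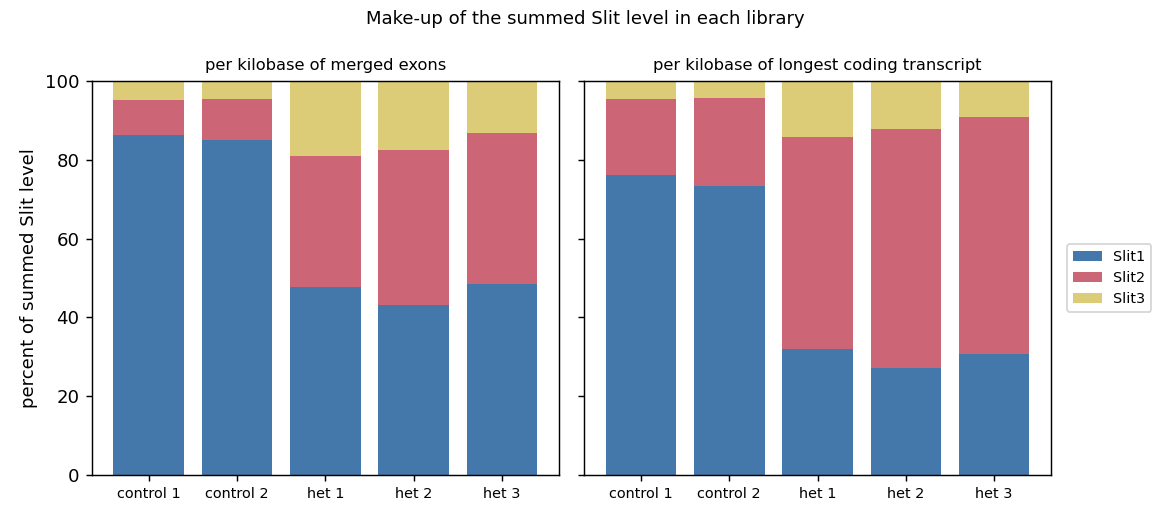
Y axis, percent of the summed Slit level per kilobase held by Slit1, Slit2 and Slit3 in each library (het, heterozygous), per merged exons on the left and per longest coding transcript on the right. Slit1 held 73.4% or more in both controls and 48.4% or less in the heterozygous libraries with either length.

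Values of the Robo receptors lay above both controls in all 3 heterozygous libraries, and none of the 3 genes passed. Robo2 had 772 and 1530.4 in controls against 2741, 2832 and 2269.8 in heterozygous libraries (log2 fold change 1.26 with SE 0.29, adjusted p = 0.0681 in limma). Leaving out control replicate 1 gave 0.77 and leaving out control replicate 2 gave 1.75, and the controls lay 0.99 apart on the log2 scale. Robo1 had 784 and 1303 against 1598, 1793 and 1407 (0.65, SE 0.24, adjusted p = 0.153). Robo3, which in mammals modulates how commissural axons respond to Slits and netrin, had 29.1 and 36.1 against 44.7, 53.4 and 68.2 (0.74, SE 0.31, adjusted p = 0.200).

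Draxin had the largest fall among the 64 genes. Draxin (ENSMUSG00000029005; chromosome 4, 148098437 to 148130698, - strand) had 1479 and 1134 in controls against 266, 281 and 282 in heterozygous libraries. The heterozygous libraries were close together and far under both controls. Group means came to 1307 ± 244 (SD, n = 2) for controls and 276 ± 8.82 (SD, n = 3). Draxin fell (log2 fold change -2.22 with SE 0.17, adjusted p = 0.0227 in limma), with -2.42 to -2.03 when 1 library was left out in turn. The netrins did not pass. Ntn1, which encodes netrin-1 and was the most abundant of the 3 ligands per length, had 3060.4 and 3911 against 3000.2, 2715 and 2731 (-0.30, SE 0.15, adjusted p = 0.254). Ntn4, a laminin-binding netrin, had 1429 and 1101 against 1179, 1316 and 1152, with overlapping groups (-0.05, SE 0.16, adjusted p = 0.869). Draxin made up 24.6% and 19.2% against 6.06%, 6.45% and 6.79% of the summed level of the 3 ligands per kilobase of merged exons.

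No netrin receptor passed. Dcc, which binds both netrin-1 and Draxin, had 275 and 414 in controls against 330.0, 386 and 252 in heterozygous libraries, so the groups overlapped (log2 fold change -0.08 with SE 0.27, adjusted p = 0.857 in limma). Unc5d had 116 and 131 against 382, 261 and 157 (1.01, SE 0.37, adjusted p = 0.158). Unc5a had 173 and 292 against 414, 347 and 387 (0.76, SE 0.25, adjusted p = 0.133). Neither of these overlapped, and in Unc5d heterozygous replicate 3 lay near the controls. Unc5b, first among the netrin receptors per length by control mean but under Unc5a in control replicate 2 and heterozygous replicate 3, had 1567 and 339 against 734, 640.1 and 561 (-0.18, SE 0.59, adjusted p = 0.859). Its controls lay on both sides of the heterozygous libraries, and leaving out control replicate 1 gave a log2 fold change of 0.92 and leaving out control replicate 2 one of -1.29. Unc5c had overlapping groups (0.77, SE 0.35, adjusted p = 0.219).

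Among the 8 ephrins, Efnb2 rose and 7 did not pass. Efnb2 (ENSMUSG00000001300; chromosome 8, 8617434 to 8661242, - strand) encodes ephrin-B2, a ligand of EphB receptors and of EphA4. It had 655 and 643 in controls against 1438, 1353 and 1217 in heterozygous libraries. Group means came to 649 ± 8.69 (SD, n = 2) for controls and 1336 ± 112 (SD, n = 3). The controls nearly coincided and all heterozygous libraries lay well above them (log2 fold change 1.04 with SE 0.14, adjusted p = 0.0322 in limma), with 0.98 to 1.10 when 1 library was left out in turn. The other B ephrins, the most abundant ephrins per length, were higher without overlap and did not pass. Efnb1 had 883 and 1018 against 1304, 1265 and 1242 (0.42, SE 0.13, adjusted p = 0.117). Efnb3 had 967 and 617 against 1542, 1129.8 and 1019 (0.65, SE 0.26, adjusted p = 0.179). The summed B ephrin level was 655 and 582 against 1072, 919 and 857 per kilobase of merged exons and 712 and 640.2 against 1185, 1026 and 955 per kilobase of the longest coding transcript. Of the A ephrins, Efna5, a ligand used in topographic mapping, had 32.6 and 48.8 against 108, 103 and 102 (1.37, SE 0.27, adjusted p = 0.0528). Efna3 (0.73) and Efna4 (0.72) were also higher without overlap. Efna2 (0.00) and Efna1 (-1.19) had overlapping groups, and Efna1 had 226 in control replicate 1 and 68.6 in control replicate 2.

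Of the 14 Eph receptors, Epha3 rose and 13 did not pass. Epha3 (ENSMUSG00000052504; chromosome 16, 63543534 to 63864175, - strand) encodes a receptor of A ephrins and had 81.5 and 107 in controls against 294, 293 and 290.3 in heterozygous libraries. Group means came to 94.5 ± 18.4 (SD, n = 2) for controls and 292 ± 1.84 (SD, n = 3). The heterozygous values were nearly equal and lay well above both controls (log2 fold change 1.63 with SE 0.20, adjusted p = 0.0289 in limma), with 1.44 to 1.83 when 1 library was left out in turn. Epha8 had 5.82 and 17.2 against 55.4, 49.9 and 47.7 (2.22, SE 0.47, adjusted p = 0.0585). Leaving out control replicate 1 gave 1.51 and leaving out control replicate 2 gave 2.93, and the added count of 1 weighs on values this low. Epha7 had 235 and 312 against 648, 761 and 483 (1.19, SE 0.24, adjusted p = 0.0550). Epha6 had 76.8 and 62.3 against 214, 201 and 82.8 (1.13, SE 0.44, adjusted p = 0.174). The groups of these 3 did not overlap, and Epha6 was close to the controls in heterozygous replicate 3.

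Epha4, Ephb6 and Epha5 were the 3 highest Eph receptors per kilobase of merged exons by control mean. Their log2 fold changes were 0.46 or less in size, and the control values enter both the rank and the fold change. Epha4, which binds ephrins of both classes, had 1279 and 1624 against 1885, 2321 and 1564, with overlap (log2 fold change 0.40 with SE 0.20, adjusted p = 0.265 in limma). Ephb6, whose kinase domain is inactive, had 748 and 500.2 against 737, 661 and 640.0, with overlap (0.15, SE 0.20, adjusted p = 0.663). Epha5, per kilobase of the longest coding transcript above Epha4 in both controls and below it in all 3 heterozygous libraries, had 2831 and 2388 against 2151, 2079 and 1519 and was lower without overlap (-0.46, SE 0.19, adjusted p = 0.192). Epha2 (0.73), Ephb1 (0.75) and Ephb2 (0.51) were higher without overlap. Ephb3 (-0.33) and Ephb4 (-0.53), the latter known as the receptor of ephrin-B2 in veins, were lower without overlap. Epha10 (0.57) and Epha1 (-0.90) overlapped. Epha1 shares 236 exon bases with Zyx on the opposite strand, which had a mean of 1467 normalized counts, so its reads are uncertain.

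Among the 9 plexins, Plxnb3 fell and 8 did not pass. Plxnb3 (ENSMUSG00000031385; chromosome X, 73757090 to 73772514, + strand) encodes a receptor of semaphorin 5A that is known from the oligodendrocyte lineage. It had 1199 and 1248 in controls against 362, 467 and 336 in heterozygous libraries. Group means came to 1223 ± 34.8 (SD, n = 2) for controls and 388 ± 69.6 (SD, n = 3). The controls were close together and all heterozygous libraries lay far below them (log2 fold change -1.67 with SE 0.18, adjusted p = 0.0258 in limma). The log2 fold change came to -1.81 without heterozygous replicate 2, the library of the other sex, and -1.81 to -1.57 over all libraries left out in turn. The other B plexins were lower without overlap and did not pass. Plxnb1, a receptor of semaphorin 4D, had 4194 and 6041 against 3502, 3705 and 3111 (-0.55, SE 0.19, adjusted p = 0.135). Plxnb2, the most abundant plexin per length, had 8435 and 7688 against 7226, 7426 and 7582 (-0.12, SE 0.12, adjusted p = 0.551).

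The A plexins, receptors for class 3 and class 6 semaphorins, did not pass. Plxna4 had 336 and 598 against 1400.0, 1388 and 849 (log2 fold change 1.40 with SE 0.32, adjusted p = 0.0688 in limma). Plxna2 had 1933 and 3807 against 5513, 5577 and 3978 (0.87, SE 0.31, adjusted p = 0.146). Both were higher without overlap, as was Plxna1 (0.29), while Plxna3 was lower (-0.30). Summed per kilobase of merged exons, the A plexins were at 735 and 948 against 1149, 1176 and 923, where heterozygous replicate 3 lay between the controls. The B plexins were at 1714 and 1818 against 1357, 1420.2 and 1358, with no overlap. Per kilobase of the longest coding transcript the sums were 826 and 1104 against 1360.4, 1391 and 1077 for the A plexins and 1982 and 2089 against 1577, 1649 and 1582 for the B plexins. Plxnc1, the receptor of semaphorin 7A, was lower without overlap (-0.49, SE 0.13, adjusted p = 0.0832), and Plxnd1, the receptor of semaphorin 3E, overlapped (0.31, SE 0.30, adjusted p = 0.532).

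None of the 19 semaphorins passed in limma, nor in edgeR, and 10 of them had an unadjusted p under 0.05, as had 26.1% of all genes tested. DESeq2 called 8 of them, where it called 7.14% of all genes higher and 6.95% lower. Of the secreted class 3 members, Sema3c had 106 and 386 in controls against 768, 945 and 805 in heterozygous libraries (log2 fold change 2.04 with SE 0.50, adjusted p = 0.0763 in limma). Sema3e had 476 and 192 against 813, 965 and 772 (1.48, SE 0.37, adjusted p = 0.0775). Each had 1 control far from the other, in opposite directions. Without control replicate 1 the values were 1.11 for Sema3c and 2.13 for Sema3e, and leaving out control replicate 2 gave 2.97 and 0.83. Sema3b had 129 and 65.0 against 39.4, 38.3 and 55.5 (-1.05, SE 0.38, adjusted p = 0.152), and it was at -0.56 without control replicate 1 and -1.54 without control replicate 2. Sema3d (0.86) and Sema3a (0.46) were higher without overlap, and Sema3f overlapped (-0.74).

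Among the other semaphorins, Sema7a, held by a lipid anchor, had 271 and 409.9 against 902, 789.7 and 578 (log2 fold change 1.16 with SE 0.26, adjusted p = 0.0674 in limma). In class 4, Sema4b had 3006 and 2273 against 1487, 1652 and 1432 (-0.78, SE 0.16, adjusted p = 0.0559). Neither gene's groups overlapped. Sema4g (-0.88) and Sema4c (-0.17) were also lower without overlap, Sema4f was higher (0.77), and Sema4a (-0.64) and Sema4d (0.05) overlapped. In class 5, Sema5b had 2075 and 2999 against 1206, 1393 and 1422 and was lower without overlap (-0.90, SE 0.19, adjusted p = 0.0571), and Sema5a, a ligand of plexin-B3, overlapped (-0.17). In class 6, Sema6d, the highest semaphorin per length in every library but control replicate 1, had 4549 and 6027 against 6213, 6373 and 5512, with overlap (0.20, SE 0.16, adjusted p = 0.458). Sema6b (0.39) and Sema6a (0.15) were higher without overlap, and Sema6c overlapped (-0.11).

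A log2 fold change of at least 1 in size without overlap was found in 18 of the 64 genes, or 28.1%, and in 11.4% of all genes tested. Of these 18 genes, 12 did not pass, 11 higher and 1 lower.

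**Figure D4:**
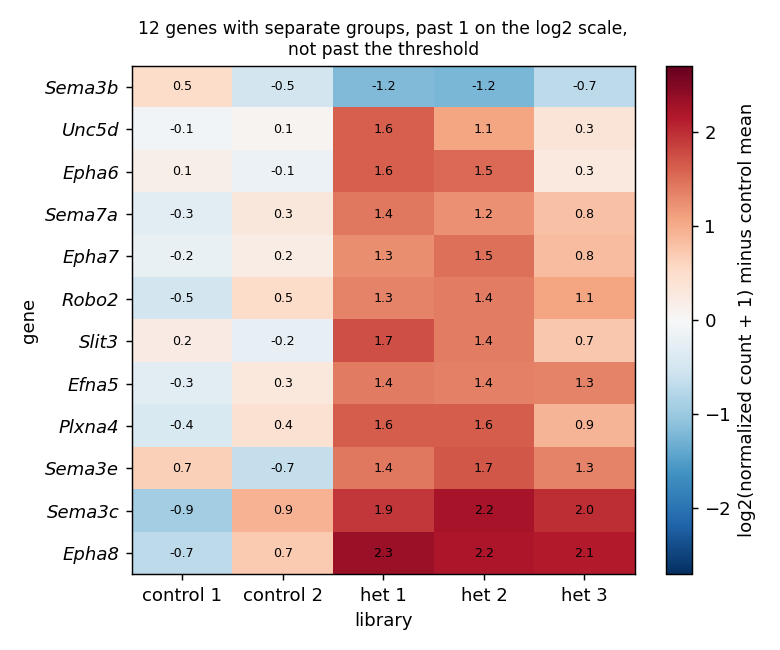
Each cell is log2(normalized count + 1) minus the mean of the 2 controls for 1 of these 12 genes (rows) in 1 library (columns; het, heterozygous). Sema3b is below 0 and the other 11 genes are above 0 in all 3 heterozygous libraries, and the controls of Sema3c lie 1.86 apart.

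The spread between the controls differed among the genes. The size of the difference between the controls had a median of 0.47 on the log2 scale over the 64 genes and of 0.45 over all genes tested. It was over 1 for 10 of the 64 genes and largest for Unc5b, at 2.21 with control replicate 1 higher. A small gap between the controls helps a gene to pass, so the positions of the 6 called genes follow in part from the test.

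**Figure D5:**
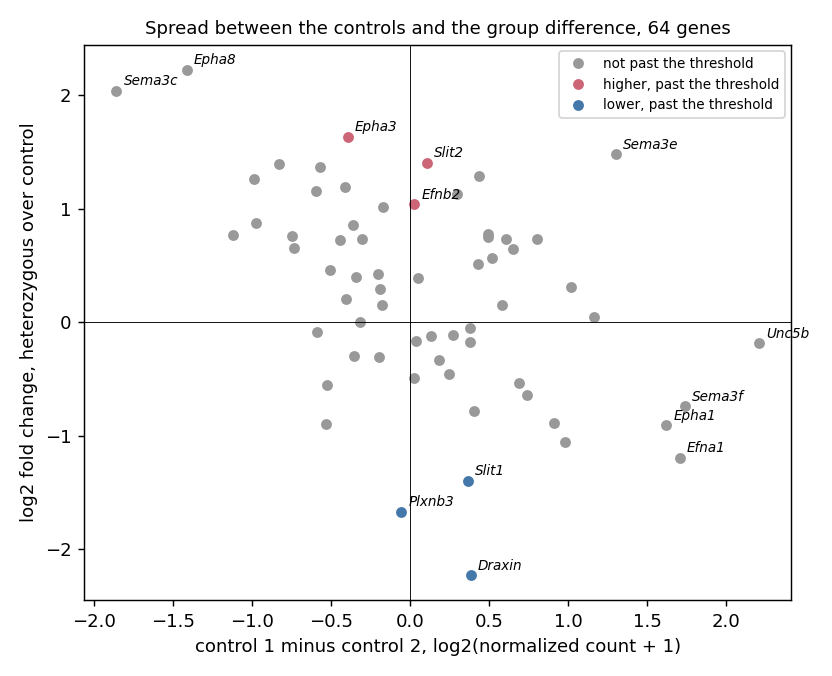
X axis, control replicate 1 minus control replicate 2 on the log2(normalized count + 1) scale, and Y axis, log2 fold change of heterozygous over control, for the 64 genes. The 6 genes past the threshold lie between -0.40 and 0.38 on the X axis, and Unc5b lies at 2.21.

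Of 67 other axon guidance genes (co-receptors, adhesion molecules and intracellular effectors), 65 were tested, of which 2 rose, 1 fell and 62 did not pass. Of all genes tested, 1.9% were called higher and 0.944% lower. Among the 65 genes, 28 were higher and 7 lower without overlap, as were 23.4% and 23.3% of all genes tested. The median log2 fold change was 0.19 over the 65 genes and 0.0079 over all genes tested. Cntn2, a contactin on commissural axons, had 436 and 546 in controls against 1175, 1423 and 1021 in heterozygous libraries (log2 fold change 1.29 with SE 0.19, adjusted p = 0.0383 in limma). Ablim3, an actin-binding LIM protein, had 149 and 185 against 448, 410.4 and 360.4 (1.28, SE 0.19, adjusted p = 0.0396). Mical1, an oxidase that disassembles actin downstream of semaphorins and plexins, had 706 and 727 against 320.5, 377 and 395 (-0.98, SE 0.16, adjusted p = 0.0427). In all 3 genes the groups did not overlap. The neuropilins Nrp1 (0.38, SE 0.14, adjusted p = 0.154) and Nrp2 (0.83, SE 0.22, adjusted p = 0.0856), co-receptors of class 3 semaphorins, did not pass.

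In the authors' deposited table, made from the same libraries, 18 of the 64 genes were called higher and 7 lower at an adjusted p under 0.05, where 12.3% of all genes with an adjusted p were called (6.32% higher and 5.99% lower). All 6 genes called here were among them in the same direction, from -2.12 for Draxin to 1.51 for Epha3 in the authors' deposited table. Exons of 15 of the 64 genes share bases with another annotated gene, and 0 of these are among the 6.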

How the data were processed

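RNA was sequenced in 5 libraries (2 control, 3 heterozygous). STAR, DESeq2 and mm10 were used by the authors, per the submitters' processing notes. Their versions, the annotation, the counter and strand use were not given in the sources used here. Each library column holds a deposited normalized signal, the authors' read counts per gene divided by a size factor. Within 0.001 read, 100% of values were whole multiples of 1 read, so reads were recovered. The authors also deposited a log2 fold change, its standard error and Wald statistic (used only as a score of the authors), a p-value and an adjusted p-value.

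The values were tested as log2(normalized count + 1) with limma 3.58.1 (R 4.3.3, intensity trend, two-sided) over 16411 genes (mean 10 or more), with Benjamini-Hochberg adjustment over all of them. Low genes' fold changes are understated on this scale. On recovered reads, edgeR 4.0.16 called 409 genes and DESeq2 1.42.0 1172 higher and 1140 lower. The tests were checked on simulated data with the same spread in all libraries. No simulated library stood apart as control replicate 1 did, so the check does not cover that case. Coordinates and exon lengths come from GENCODE M21 (mm10). The members and lists were chosen with earlier results of these data known. Values per library were given for members past the threshold, for those with separate groups and a log2 fold change of at least 1 in size, and for the 2 highest per length by control mean in each family. A few others, such as Epha5, Plxna2, Sema5b, Robo3, Dcc and Efna1, were added after their values were seen.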

Additional observations from a re-analysis of the deposited data

How the results depend on the processing

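Counts are given higher before lower. DESeq2 called 16 and 7 guidance genes and 1172 and 1140 of all genes, and library weights 1 and 1 guidance genes and 79 and 38 of all genes. Leaving out 1 library gave 0 to 27 guidance genes higher and 0 to 17 lower, and 0 to 4465 and 0 to 3855 of all genes. The guidance gene counts were 0 without any 1 heterozygous library. Of all genes, 0 were then higher, and 1, 1 and 0 lower without heterozygous replicate 1, 2 and 3. In these fits 22 to 29 guidance genes and 14.4% to 16.3% of all genes had an unadjusted p under 0.05 in limma. With 1 control left, it is assumed to vary like the heterozygous libraries. Arid1b passed in DESeq2 (log2 fold change -0.589) and without either control, and ranged from -0.677 to -0.481 with 1 library left out. The median of the 64 genes ranged from 0.275 to 0.400 over all alternatives.

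No label states that replicate numbers pair the libraries. Deviations from the group means correlated at 0.0279 for number 1 and -0.0399 for number 2, and at -0.0663 to 0.0663 for unlike numbers. With 2 controls, the deviations of one are those of the other with the sign turned, so these values cannot decide whether the numbers pair. With the number as a replicate block, 0 and 0 guidance genes and 0 and 1 of all genes were called. In that fit 32 guidance genes and 14.9% of all genes had an unadjusted p under 0.05 in limma. Only the heterozygous group has a replicate 3, so the block takes up that library and its values do not enter the fold changes. Arid1b, for example, was at -0.525 with the block and also without heterozygous replicate 3.

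The sign turned in some alternatives for 11 genes, none of them called. Unc5b was at 0.919 without control replicate 1 and -1.29 without control replicate 2. Sema3f was at 0.131 without control replicate 1 and -1.61 without control replicate 2. Sema4d was at 0.628 without control replicate 1 and -0.532 without control replicate 2, at -0.00332 without heterozygous replicate 1, -0.0777 in edgeR and -0.0755 in DESeq2. Plxnd1 was at 0.818 without control replicate 1 and -0.202 without control replicate 2. Ephb6 was at 0.438 without control replicate 1 and -0.142 without control replicate 2. Sema5a was at 0.0174 without control replicate 1 and -0.364 without control replicate 2. Sema6c was at 0.0204 without control replicate 1 and -0.248 without control replicate 2. Sema6d was at -0.00145 without control replicate 1 and 0.404 without control replicate 2. Ntn4 was at 0.141 without control replicate 1 and -0.236 without control replicate 2. Dcc was at -0.381 without control replicate 1 and 0.211 without control replicate 2, at 0.0151 with library weights, and at 0.0818 with the block. Efna2 was at -0.155 without control replicate 1 and 0.161 without control replicate 2, at -0.00999 with quantile normalization, -0.0145 in edgeR, -0.0121 in DESeq2, -0.0181 with library weights and -0.0429 with the block. The cause was not tested. Depth limits the low genes, since Epha8, Epha1, Robo3, Efna5 and Slit3 each had a control at 32.6 normalized counts or lower.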

Other observations

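Heterozygous replicate 3 had the lowest of the 3 heterozygous values for 46 of the 64 guidance genes (71.9%) and for 38.2% of all genes tested. It was the lowest for 26 of 31 receptors and 20 of 33 ligands. Epha6, for example, had 82.8 there against 214 and 201, whereas Efna4 was highest there, at 220.2 against 139 and 134. Summed markers of neurons, astrocytes, endothelium and pericytes with fibroblasts were also lowest of the 3 in that library, and those of neural stem cells, oligodendrocytes and microglia highest. The neuron sum was 57713 against 80605 and 66171. Their part in this pattern was not tested.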
